A study of Mus musculus with 12 samples.

Results

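The comparison set osteoclast cultures without Mincle (knockout, KO) against wildtype (WT) cultures, both exposed to the supernatant of necrotic osteocytes. The members are the 6 libraries titled with this combination, 3 per genotype, out of 12 in the series, chosen by their sample titles alone, and every expressed gene was tested. The remaining 6 libraries are the same genotypes under the supernatant of viable osteocytes, the control condition. WT cells came from C57BL/6 mice, and the knockout is labelled by its genotype, with no strain, allele or age given. Bone marrow monocytes of both genotypes were turned into osteoclasts with M-CSF (20 ng/ml) and RANKL (10 ng/ml). On day 1 osteocyte supernatant was added at a ratio of 1:2 for 24 hours. RNA was taken on day 3. The necrotic supernatant came from serum-starved osteocytes. Whether the replicates were separate animals or cultures is not stated in the labels. The p-values therefore rest on the spread among these libraries, which may be technical.

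Mincle, encoded by Clec4e, is a receptor of the C-type lectin family on myeloid cells and binds microbial glycolipids and products of dead cells. It carries no signalling tail of its own and signals through the ITAM adaptor FcRγ (Fcer1g), the kinase Syk and the adaptor Card9. ITAM signalling through Fcer1g and Tyrobp, together with RANK, drives the calcium signals and the transcription factor Nfatc1 that make osteoclasts, the multinucleated cells that dissolve bone mineral with acid and degrade its matrix with cathepsin K and matrix metalloproteinases.

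The 6 libraries held between 16701187 and 25429661 counts in genes, with a median of 20916887. Levels are given as CPM, the counts divided by the library total on a per-million scale with edgeR's TMM (trimmed mean) factors, in the order of the replicate numbers, and 3 counts correspond to 0.119 to 0.185 CPM. Lyz2, the lysozyme of phagocytes, was the most abundant gene at 18166, 17671 and 17599 CPM in WT and 16667, 17329.6 and 16768 CPM in KO, followed by mt-Co1 and the ferritin light chain gene Ftl1, and none of these passed the test. WT replicate 1 and KO replicate 2 stood apart from the other libraries of their groups in the chi-square between replicates. Per degree of freedom it was 17.5 and 22.8 for the former and 23.3 and 19.5 for the latter, against 6.71 and 3.85 for the remaining pairs. Correlations of log2 CPM were 0.9899 and 0.9905 for WT replicate 1 and 0.9936 and 0.9932 for KO replicate 2. The remaining pairs were at 0.9919 in WT and 0.9948 in KO, so KO replicate 2 correlated more closely than the remaining WT pair. Gm23935, CT010467.1 (annotated as rRNA) and Lars2, picked after their values were seen, were high in exactly WT replicate 1 and KO replicate 2 of the 6 libraries. Gm23935 was measured at 2916, 220.2 and 159 CPM in WT and 176, 3878 and 382 CPM in KO, CT010467.1 at 4303, 394 and 299 CPM in WT and 272, 5534 and 456 CPM in KO, and Lars2, the mitochondrial leucyl-tRNA synthetase gene, at 2259, 227 and 206 CPM in WT and 191, 2902 and 297 CPM in KO. Each of these 2 groups held 1 such library. Under viable supernatant, WT replicate 3 was raised as well, at 840 CPM for Gm23935, 1081 CPM for CT010467.1 and 610 CPM for Lars2. WT replicates 1 and 2 were there at 189 and 260 CPM, 311 and 348 CPM, and 208 and 230 CPM. Defining osteoclast markers were abundant in all 6 libraries, with Ctsk (cathepsin K) between 6388 and 7902 CPM, Acp5 between 5224 and 6588 CPM and Calcr (calcitonin receptor) between 128 and 145 CPM.

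Clec4e (gene ENSMUSG00000030142 on chromosome 6, 123281789 to 123289870, minus strand of GRCm38) stood at 27.8, 21.9 and 25.4 CPM in the 3 WT libraries and 1.98, 1.56 and 2.29 CPM in the 3 KO libraries. Every KO library lay far below every WT library, and the log2 fold change was -3.67 (SE 0.15, adjusted p = 4.1e-10). No library went against its genotype label, and the KO libraries held 131 Clec4e counts in all against 1457 in WT. The genes next to Clec4e encode related lectins. Clec4n (Dectin-2, a receptor for fungal mannans that also uses FcRγ) stood at 72.3, 70.4 and 65 CPM in WT and 84.7, 95.3 and 90.2 CPM in KO, so all KO libraries were above all WT libraries (log2 fold change 0.38, SE 0.09, adjusted p = 0.0203). Clec4d, the partner that forms heterodimers with Mincle, was measured at 315, 290.2 and 302 CPM in WT and 310.5, 308 and 300.0 CPM in KO and did not pass (adjusted p = 0.908). Clec4a1, Clec4a2, Clec4a3, Clec4a4, Clec4b1 and Clec4b2 did not pass either, with log2 fold changes between -0.24 and 0.22. Of the 25 tested genes within 1 Mb of Clec4e, 3 passed: Clec4e, Clec4n and the growth factor gene Gdf3 (0.741, 1 and 0.912 CPM in WT, 1.98, 1.51 and 1.66 CPM in KO), the last named after its values were seen. Clec4e itself is not counted in the list of 19 lectins and adaptors named after the Dectin-2 cluster. Of these 19, 1 was higher (Clec4n) and 1 lower (Clec12a). Clec12a, an inhibitory ITIM lectin, lies farther along chromosome 6 (129342691 to 129365303), away from the genes next to Clec4e. It was measured at 489.9, 549 and 483 CPM in WT and 426, 439 and 430.5 CPM in KO. Fcer1g, Syk and Card9, through which Mincle signals, were at overlapping levels in the 2 genotypes, and so was Tyrobp, another ITAM adaptor. Their log2 fold changes were -0.04, 0.06, -0.12 and -0.06 in this order, with adjusted p of at least 0.314.

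Across all 14153 genes tested with edgeR's quasi-likelihood test, 1150 passed an adjusted p of 0.05, which is 8.13%. In KO, 708 were higher (5.00%) and 442 lower (3.12%), and 1039 of the 1150 were protein coding. Most differences were small. The median absolute log2 fold change of the called genes was 0.31, against 0.12 over all genes tested, and 90.1% of the called genes changed by less than 2-fold. Of the 114 genes that changed at least 2-fold, 68 were higher and 46 lower, and 89 had a mean under 5 CPM in both genotypes. In 1143 of the 1150, no KO library overlapped a WT library, whereas groups did not overlap in 29.8% of all genes tested. The calls and the separation rest on the same libraries, so a larger share among called genes is built in and is no result. For a single called gene, separate groups describe the levels and add no further support. The count rested on a few libraries: it was 163 without KO replicate 1, 250 without WT replicate 2, 341 without KO replicate 2 and 659 without KO replicate 3, and 1006 and 1380 without WT replicates 1 and 3. A set of 148 genes (94 higher and 54 lower) was called in all 6 of these fits and in the fit to all libraries. With WT replicate 1 and KO replicate 2 both left out, a choice made after seeing the data, 261 genes were called, 156 higher and 105 lower. Upper-quartile scaling gave 1192 calls with another split, 627 higher and 565 lower. The counts of list members below stand against the shares over all genes, 5.00% higher and 3.12% lower. They moved with the libraries as well: of 84 such counts, 40 differed by more than 1.5 times without KO replicate 1 and 36 without WT replicate 2.

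**Figure D1:**
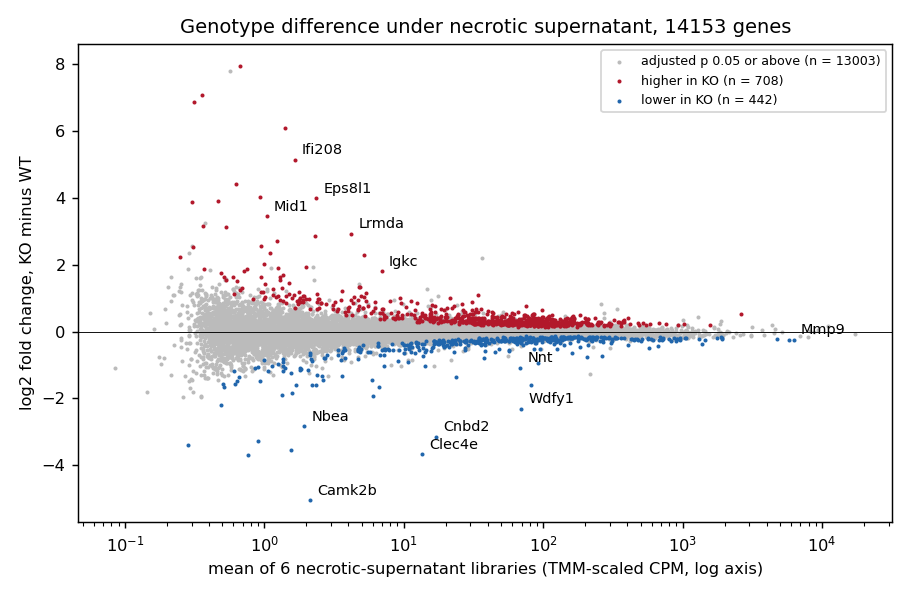
Each point is 1 of 14153 tested genes, placed by its mean level over the 6 necrotic-supernatant libraries (TMM-scaled CPM, log axis) and its log2 fold change, KO minus WT. The 708 genes called higher (red) and 442 called lower (blue) lie mostly near 0, and few genes such as Clec4e (-3.67), Wdfy1 (-2.31) and Ifi208 (5.13) lie far from it.

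The genes with the largest falls encoded proteins of several unrelated kinds. Camk2b, the beta subunit of calcium/calmodulin-dependent kinase II, fell from 4.75, 3.57 and 4.15 CPM in WT to 0.0791, 0.26 and 0.045 CPM in KO (log2 fold change -5.05, SE 0.33, adjusted p = 2.63e-07), with 241 counts in WT against 8 in KO. Cnbd2, which encodes a cyclic nucleotide-binding protein, fell from 31.7, 33.3 and 27.3 to 3.68, 3.43 and 3.24 CPM (log2 fold change -3.15, adjusted p = 2.18e-11). Wdfy1, an endosomal FYVE-domain protein described as an adaptor of Toll-like receptor signalling, fell from 115, 112 and 118 to 24.1, 22.3 and 23.2 CPM (log2 fold change -2.31, SE 0.06) and had the smallest adjusted p of the genes named here (5.86e-13). The KO levels of all 3 genes were several times below the WT levels. Groups that do not overlap were a condition for the choice of the 12 largest falls and the 12 largest rises, so their separation is no result. Rab4a, a small GTPase of endosomal recycling, fell from 8.77, 9.25 and 10.4 to 2.73, 2.13 and 2.65 CPM (log2 fold change -1.91, adjusted p = 3.8e-06). Nbea, a BEACH-domain protein of membrane traffic, fell from 2.78, 2.9 and 4.48 to 0.672, 0.416 and 0.315 CPM (log2 fold change -2.84, adjusted p = 3.87e-05). Slc15a2, the peptide transporter PEPT2, fell from 1.23, 1.39 and 1.62 to 0.0791, 0.104 and 0.135 CPM (log2 fold change -3.70), and KO held 7 counts of it in all. The phosphoinositide phosphatase gene Inpp5j (-3.29), the matrix-associated carboxypeptidase-like gene Aebp1 (-1.83) and Efcab7 (-1.60) completed the set with levels under 4 CPM in every library. Camk2b, Slc15a2 and Inpp5j passed the filter on low counts through their WT libraries alone. They could not come out higher, and with few KO counts the size of their fall is uncertain.

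Saa3 and Rps27rt were also among the 12 largest falls, but single WT libraries carried much of the difference. Saa3, an acute-phase serum amyloid A of macrophages, was measured at 16.7, 5.02 and 8.46 CPM in WT and 3.4, 2.65 and 3.33 CPM in KO (log2 fold change -1.66, SE 0.35, adjusted p = 0.0136). WT replicate 1 was the highest of the 6 libraries. It passed in 4 of the 6 fits that each left out a library. Rps27rt, a retrotransposed copy of a ribosomal protein gene whose reads may be shared with its parent, stood at 61.7, 261 and 45.6 CPM in WT and 38.8, 41.1 and 42.3 CPM in KO. It passed in 2 of the 6 fits, and its high value was that of WT replicate 2.

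Among the genes with the largest rises, Ifi208, a member of the interferon-inducible Ifi200 family, went from 0.0617, 0.167 and 0.0415 CPM in WT to 2.81, 3.59 and 3.24 CPM in KO (log2 fold change 5.13, SE 0.37, adjusted p = 8.04e-07). It was the only 1 of 12 tested Ifi200 genes that passed, although 10 of the 12 had a positive log2 fold change (list median 0.22, against -0.008 over all genes). Lrmda, a leucine-rich protein of melanocyte differentiation, rose from 0.926, 0.836 and 1.12 to 7.32, 8.01 and 7.02 CPM (log2 fold change 2.93, adjusted p = 1.33e-07). Eps8l1, an Eps8-like regulator of actin, rose from 0.0617, 0.558 and 0.207 to 4.71, 5.15 and 3.42 CPM (log2 fold change 3.98, adjusted p = 1.28e-05). In the order given, the WT libraries held 5, 57 and 16 counts of these genes in all, against 212, 495 and 294 in KO. Atp9a, a phospholipid flippase, rose from 0.123, 0.112 and 0.0829 to 1.38, 1.4 and 2.43 CPM (log2 fold change 4.01), with 6 counts in WT against 116 in KO. Mid1, a ubiquitin ligase bound to microtubules, rose from 0.0617, 0.223 and 0.207 to 2.21, 1.92 and 1.62 CPM (log2 fold change 3.45). Mtus2, a microtubule-associated protein gene, rose from 0.37, 0.279 and 0.497 to 1.46, 1.56 and 1.8 CPM (log2 fold change 2.02). Ifi208, Eps8l1, Atp9a, Mid1 and Mtus2 passed the filter on low counts through their KO libraries alone. They could not come out lower, and with few WT counts the size of their rise is uncertain.

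**Figure D2:**
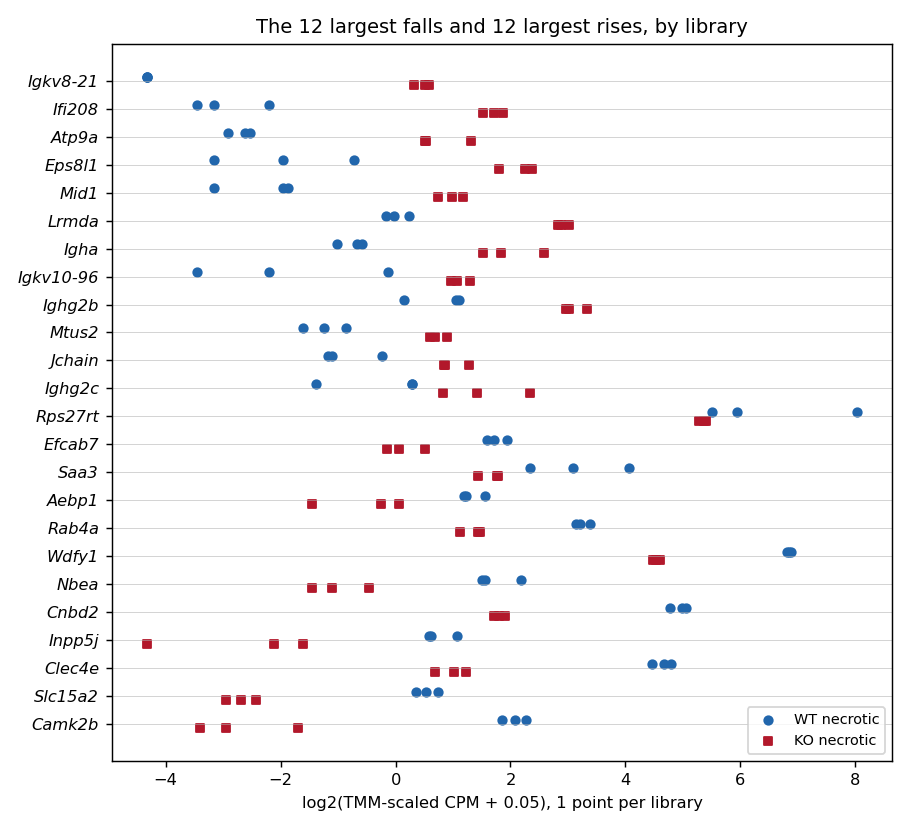
Levels of the 12 genes with the largest falls and the 12 with the largest rises, in log2(TMM-scaled CPM + 0.05) on the horizontal axis, with 1 point per library (blue circles WT, red squares KO), chosen with separate groups as a condition. Wdfy1 lies at 112 to 118 CPM in WT and 22.3 to 24.1 CPM in KO, and a single WT point stands out for Rps27rt (261 CPM).

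Immunoglobulin transcripts made up the other part of the largest rises. Of 18 immunoglobulin genes tested, 10 were higher in KO and 0 lower (against 5.00% higher and 3.12% lower over all genes), 5 of 8 constant region genes and 5 of 10 variable segments. Genes with no or few WT counts, such as Igkv8-21, Ighg3, Igkv1-88, Ighv1-53 and Igkv15-103, passed the filter on low counts through their KO libraries alone. They could not come out lower, so these counts are partly fixed by the filter and their excess over all genes is no independent result. Igkc, the kappa light chain constant region, rose from 2.41, 4.01 and 2.86 to 9.89, 10.7 and 11.8 CPM (log2 fold change 1.80, SE 0.16, adjusted p = 7.88e-06). Ighg2b, the constant region of IgG2b, rose from 2.1, 1.06 and 2.03 to 8.07, 7.75 and 9.99 CPM (log2 fold change 2.30, adjusted p = 2.85e-05). Igha, that of IgA, rose from 0.617, 0.446 and 0.58 to 2.81, 5.93 and 3.51 CPM (log2 fold change 2.86, adjusted p = 0.000411). Ighg2c (1.91), Igkv10-96 (2.72) and Jchain (1.91), the joining chain of secreted IgA and IgM, also rose. Igkv8-21 had 0 counts in all WT libraries and 1.38, 1.2 and 1.44 CPM in KO, at least 8.43-fold higher when WT is set to a floor of 3 counts per library, and Ighg3 and Igkv1-88 were at 0 in WT as well (at least 4.48-fold and 3.95-fold higher). Reads of near-identical segments may have been split or lost in counting, so single segments are uncertain. The summed immunoglobulin level was 51.0 to 66.0 CPM in WT and 83.2 to 91.5 CPM in KO. Ighm, the IgM heavy chain gene and the largest part of that sum in WT, was measured at 37.3, 53.2 and 42.9 CPM in WT and 36.9, 39.2 and 38.7 CPM in KO. Of the B and T cell marker list, 1 of 7 tested genes passed, Igkc itself. The B cell markers Ms4a1 and Cd79a were at or under 0.751 CPM in every library and the T cell gene Cd3e at or under 0.112 CPM, whereas the B cell marker Cd79b was measured at 2.90, 2.90 and 3.03 CPM in WT and 2.57, 3.17 and 2.61 CPM in KO. The summed level of that list was 56.8 to 74.5 CPM in WT and 63.1 to 67.8 CPM in KO, with Gzma at 0 in all 6 libraries, and the part of lymphoid cells in the result was not tested. In bulk RNA, for this list and for those of other cell types, fewer cells of a type and less RNA per cell cannot be told apart.

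Markers of neutrophils and their precursors were the list with the largest share of lower genes. Of 16 tested, 8 were lower in KO and 0 higher (against 3.12% lower over all genes), with a median log2 fold change of -0.30 against -0.008 over all genes. The members that fell were genes of the azurophil granules made by promyelocytes (Elane, Mpo, Prtn3, Ctsg), of later granules (Camp, Ngp, Lcn2) and S100a9. The promoters of the 4 azurophil granule genes are shown because these genes fell together. Each runs from 250 bases before to 50 bases after the gene's start in RefSeq (GRCm38.p6), written 5′ to 3′ on the gene's own strand, and capitals mark GAGGAA, the core letters of the purine-rich sites bound by ETS factors such as PU.1.
Mpo, chr11:87793534-87793833, plus strand: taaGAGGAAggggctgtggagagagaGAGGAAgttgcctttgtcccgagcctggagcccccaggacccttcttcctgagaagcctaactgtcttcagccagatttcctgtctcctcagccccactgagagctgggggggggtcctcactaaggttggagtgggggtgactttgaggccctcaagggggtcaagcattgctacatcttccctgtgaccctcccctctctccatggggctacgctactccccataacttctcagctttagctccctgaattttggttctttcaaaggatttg
Elane, chr10:79886062-79886361, plus strand: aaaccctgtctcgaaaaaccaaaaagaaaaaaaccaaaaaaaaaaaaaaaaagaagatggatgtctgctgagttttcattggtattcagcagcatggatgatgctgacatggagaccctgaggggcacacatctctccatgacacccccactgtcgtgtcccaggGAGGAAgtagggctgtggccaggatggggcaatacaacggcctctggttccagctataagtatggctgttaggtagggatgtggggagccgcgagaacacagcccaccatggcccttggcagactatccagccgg
Prtn3, chr10:79879417-79879716, plus strand: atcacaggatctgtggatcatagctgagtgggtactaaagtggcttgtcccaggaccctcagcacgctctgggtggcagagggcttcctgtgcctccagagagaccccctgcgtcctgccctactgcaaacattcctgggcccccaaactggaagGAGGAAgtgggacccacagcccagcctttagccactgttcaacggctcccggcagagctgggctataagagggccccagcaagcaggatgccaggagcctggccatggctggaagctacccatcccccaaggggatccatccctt
Ctsg, chr14:56102525-56102824, minus strand: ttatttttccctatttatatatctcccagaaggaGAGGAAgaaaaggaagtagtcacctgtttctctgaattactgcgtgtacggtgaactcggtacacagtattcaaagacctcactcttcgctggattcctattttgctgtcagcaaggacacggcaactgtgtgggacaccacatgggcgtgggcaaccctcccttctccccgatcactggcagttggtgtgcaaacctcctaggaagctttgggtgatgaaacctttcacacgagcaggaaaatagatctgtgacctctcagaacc
Both strands were searched for GAGGAA and for TTNNGCAA, a C/EBP-type pattern. GAGGAA occurred 2 times in the window of Mpo and 1 time in each of the others, and TTNNGCAA in none of the 4. GAGGAA was present in 28.3% of all 27025 promoters in the table, in 27.4% of 10156 promoters of tested genes, in 10 of the 15 neutrophil list promoters that were found and in 5 of the 8 whose genes were lower. TTNNGCAA was present in 10.8%, 8.51%, 8 of 15 and 3 of 8, respectively. A match is a description of these letters and not a bound site.

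Elane, neutrophil elastase, was measured at 55.1, 65.1 and 49.9 CPM in WT and 36.9, 40.2 and 40.4 CPM in KO (log2 fold change -0.53, SE 0.09, adjusted p = 0.0053). Mpo, myeloperoxidase, was measured at 71.7, 76.7 and 53.6 CPM in WT and 45.7, 49.7 and 41.8 CPM in KO (log2 fold change -0.55, adjusted p = 0.0148). Prtn3, proteinase 3, was measured at 43.7, 56.3 and 38.2 CPM in WT and 27.9, 29.6 and 35.4 CPM in KO (log2 fold change -0.57, adjusted p = 0.0193), and Ctsg, cathepsin G, at 34, 37.1 and 25.6 CPM in WT and 22.2, 23 and 23.4 CPM in KO (log2 fold change -0.49, adjusted p = 0.0397). In all 4 genes the WT libraries were above the KO libraries, with WT replicate 2 the highest and WT replicate 3 the lowest of WT. S100a9, a subunit of calprotectin, fell from 341, 360.0 and 322 to 268, 262 and 278 CPM (log2 fold change -0.34, adjusted p = 0.0041), whereas its partner S100a8 overlapped between genotypes (249.7, 199 and 179 CPM in WT, 187, 192 and 200.4 CPM in KO, adjusted p = 0.624). The log2 fold changes were -0.41 for Camp, -0.40 for Lcn2 and -0.22 for Ngp. Members of the list that did not pass included Ltf (-0.20), Mmp8 (0.10), Csf3r (-0.03), Cebpe (-0.10) and Ly6g (-0.20), the last at 1.30 to 2.40 CPM. The summed level of the 16 genes was 1455 to 1694 CPM in WT and 1356 to 1406 CPM in KO. The number of lower members was 2 without KO replicate 1, 4 without WT replicate 2, 4 with WT replicate 1 and KO replicate 2 both left out, and 5 with length and GC trends removed. Elane and S100a9 passed in all 6 fits that left out a library. Ctsg passed in 1 of them, and Mpo and Prtn3 in 3. Haptoglobin (Hp), a haemoglobin-binding protein of the heme and iron list that is also made by neutrophil precursors, fell with them from 51.6, 66 and 46.9 to 31.7, 37.6 and 38.5 CPM (log2 fold change -0.61, adjusted p = 0.00858).

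Of 30 tested genes of osteoclast differentiation and resorption, 0 were higher and 3 lower in KO (10.0% called, against 8.13% over all genes, and 3.12% lower), with a list median of -0.04 against -0.008 over all genes. Mmp9, the matrix metalloproteinase of migrating osteoclasts, fell from 6839, 6824 and 6747 to 5745, 5615 and 5815 CPM (log2 fold change -0.25, SE 0.03, adjusted p = 0.000982). Acp5, tartrate-resistant acid phosphatase, fell from 6257, 6588 and 6133 to 5296, 5224 and 5344 CPM (log2 fold change -0.26, SE 0.04, adjusted p = 0.00306). Both were lower in every KO library than in any WT library and passed in all 6 fits that left out a library. The cell fusion gene Ocstamp fell from 179.6, 191 and 199 to 160.0, 165 and 172 CPM (log2 fold change -0.20, adjusted p = 0.0308), passed in 2 of those fits and did not pass with length and GC trends removed (adjusted p = 0.068). Ctsk, cathepsin K, was measured at 7902, 7190.2 and 6701 CPM in WT and 6757, 6388 and 6796 CPM in KO, with overlapping groups (log2 fold change -0.13, SE 0.05, adjusted p = 0.135). Calcr (0.02), Itgb3 (integrin beta 3, 0.03), Nfatc1 (-0.01), Tnfrsf11a (RANK, 0.02), Dcstamp (-0.06), Atp6v0d2 (-0.06) and Car2 (carbonic anhydrase, -0.22) did not pass. None of 13 repressors of osteoclast formation passed. Of 18 V-ATPase subunits, the proton pump of the resorption pit, Atp6v0a2 was higher (0.22) and Atp6v0d1 lower (-0.21). Of 31 podosome and sealing zone genes, 2 were lower, Arpc3 of the Arp2/3 complex (-0.21) and the actin bundler Fscn1 (-1.14). Among 30 lysosomal genes, the acid lipase Lipa (0.23) and the cholesterol exporter Npc1 (0.19) were higher, and 3 were lower, among them Ctsa (-0.18) and progranulin (Grn, -0.18).

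Of 31 genes of ITAM receptors and calcium signalling, 2 were higher and 2 lower. Siglec15, a sialic acid-binding receptor of osteoclasts that pairs with Tyrobp, rose from 26.2, 24.9 and 29.4 to 36.9, 35.3 and 34.8 CPM (log2 fold change 0.41, adjusted p = 0.0199). All KO libraries were above all WT libraries, and the gene did not pass with length and GC trends removed (adjusted p = 0.229). Trem3 (6.91, 5.63 and 5.26 CPM in WT, 3.48, 3.8 and 4.27 CPM in KO, log2 fold change -0.62) and the phospholipase gene Plcg1 (-0.26) were lower. Coupling and guidance factors, signals by which osteoclasts address bone-forming cells and vessels, were higher in 3 of 20 cases and lower in 2. Nrp1, the semaphorin co-receptor neuropilin 1, rose from 175, 173 and 169.7 to 214, 214 and 201 CPM (log2 fold change 0.28, adjusted p = 0.00218). Plxna1 (0.33), its plexin partner, and the ligand Sema3a (1.10, at most 2.50 CPM) were higher as well, and the growth factor genes Vegfc (-0.52) and Pdgfb (-0.16) were lower. Among 25 receptors for growth factors and cytokines, 1 was lower, the common gamma chain Il2rg (75.7, 79.7 and 76.2 CPM in WT, 60.3, 62.4 and 62 CPM in KO, log2 fold change -0.33).

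Part of the energy metabolism genes were lower by small amounts. Of 28 genes of glycolysis and the hypoxia response, 10 were lower and 0 higher, with a median of -0.16. Over all genes 3.12% were lower, with a median of -0.008, and the counts of the next 3 lists are set against the same share. The phosphofructokinase gene Pfkl fell from 128, 134 and 143 to 102, 103 and 108 CPM (log2 fold change -0.37, adjusted p = 0.0111) and the enolase gene Eno1 from 1523, 1612 and 1609 to 1269, 1324 and 1395 CPM (log2 fold change -0.25, adjusted p = 0.0144). Gpi1 (-0.25) and the hypoxia-induced gene Ankrd37 (4.63, 5.18 and 4.68 CPM in WT, 2.85, 2.76 and 2.74 CPM in KO, log2 fold change -0.79) fell too, as did Ldha (-0.26), Aldoa (-0.17), Tpi1 (-0.23) and the lactate exporter gene Slc16a3 (-0.34). Slc2a1 (0.01), Hk2 (0.15) and Vegfa (-0.09), targets of the same hypoxia pathway, did not pass. Of 28 genes of pyruvate entry and the TCA cycle, 6 were lower and 0 higher, with a median of -0.11, among them Ogdh (281, 300.5 and 308 CPM in WT, 235, 238 and 241 CPM in KO, log2 fold change -0.32, adjusted p = 0.00223), Fh1 (-0.20), Suclg1 (-0.20) and Suclg2 (-0.19). Of 77 nuclear genes of the respiratory chain, 9 were lower and 0 higher (median -0.11), such as Uqcrc1 (-0.20), Cox4i1 (-0.26) and Atp5o (-0.29). Of 28 cytosolic ribosomal protein genes, 6 were lower and 0 higher (median -0.17), with Rplp0 (-0.24), Rpl13 (-0.28), Rpl5 (-0.24) and Rpl8 (-0.20) having the smallest p. The counts of these 4 lists changed with the libraries and with the removal of length and GC trends together: without KO replicate 1 the numbers of lower members were 0, 1, 0 and 0 in the order given. With length and GC trends removed they were 3, 5, 3 and 1, and 1 glycolysis and hypoxia gene was then higher. Under viable supernatant the numbers of lower members were 4, 7, 28 and 9, with medians of -0.14, -0.16, -0.22 and -0.23. There, 1 glycolysis and hypoxia gene was higher.

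Some transcripts encoded by the mitochondrial genome were higher. Of 14 tested, 3 were higher in KO and 0 lower (against 5.00% higher over all genes), with a median of 0.19, and 3 were higher with length and GC trends removed. The complex I subunit gene mt-Nd5 rose from 2203, 1871 and 2330.2 to 3361, 2948 and 2947 CPM (log2 fold change 0.53, SE 0.10, adjusted p = 0.00768), with no overlap between the groups. The short transcripts mt-Nd3 (3.4, 1.73 and 1.53 CPM in WT, 4.59, 4.89 and 5.58 CPM in KO) and mt-Nd4l (2.59, 1.17 and 1.24 CPM in WT, 3.72, 2.44 and 3.37 CPM in KO) passed as well, and mt-Nd4l overlapped between groups. The abundant mt-Co1 was measured at 10281, 10661 and 10292 CPM in WT and 12126, 11301 and 11285 CPM in KO and did not pass (log2 fold change 0.15, adjusted p = 0.0921). The count of higher members was 0 without KO replicate 1, 1 without WT replicate 2 and 8 without WT replicate 1.

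Genes of inflammation and antigen presentation differed in a few members each. Among 19 inflammatory mediators, Saa3, Lcn2 and the interleukin 1 receptor antagonist gene Il1rn (39.3, 36.2 and 37.6 CPM in WT, 30.8, 33.3 and 30.8 CPM in KO, log2 fold change -0.25) were lower and 0 were higher. Of 12 MHC class II genes, the invariant chain gene Cd74 fell from 139.7, 169 and 135 to 105, 102 and 103 CPM (log2 fold change -0.52, SE 0.09, adjusted p = 0.00485). H2-Ab1 fell from 40.9, 48.4 and 38.6 to 30.5, 33.1 and 34.2 CPM (log2 fold change -0.39, adjusted p = 0.0129). All WT libraries of both were above all KO libraries. H2-Aa (-0.26), H2-Eb1 (-0.25) and the class II activator Ciita (-0.07) did not pass, and Rfx5, a subunit of the factor that binds class II promoters, was higher (0.34). Of 23 MHC class I genes, the immunoproteasome subunit gene Psmb10 was lower (-0.25). Of 39 type I interferon-stimulated genes, Ifi27l2a was lower (-0.34, adjusted p = 0.0408) and 0 were higher, with a list median of 0.02, and none of 15 interferon-inducible GTPases passed. Of 25 chemokines and receptors, Ccl8 was lower (5.93, 5.52 and 6.01 CPM in WT, 4.15, 3.85 and 3.82 CPM in KO, log2 fold change -0.56), and none of 23 NF-kB genes passed. Among 22 Toll-like receptors and adaptors, Tlr8, a sensor of single-stranded RNA, rose from 59.6, 70.3 and 76.5 to 99.1, 101 and 91.2 CPM (log2 fold change 0.49, SE 0.09, adjusted p = 0.00633), and the lipopolysaccharide co-receptor gene Cd14 was lower (-0.21).

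Genes of macrophages were called in both directions, a few members of each list. Of 24 scavenger and dead-cell clearance receptors, 3 were higher and 1 lower: Cd36, which takes up oxidised lipids and apoptotic cells, rose from 173, 161 and 178 to 244, 231 and 203 CPM (log2 fold change 0.41, SE 0.06, adjusted p = 0.00264). Colec12 (0.32) and Stab1 (0.19) also rose, and Mfge8, a bridge between dying cells and phagocytes, was lower (-0.22). With length and GC trends removed these last 3 did not pass, at 0.14 for Colec12 (adjusted p = 0.224), 0.10 for Stab1 (adjusted p = 0.276) and -0.12 for Mfge8 (adjusted p = 0.13). Of 16 alternative activation genes, Stab1 and the mannose receptor gene Mrc1 (0.23) were higher. Chil3, a chitinase-like secreted protein, fell from 644, 749.8 and 634 to 460.3, 474 and 498 CPM (log2 fold change -0.50, SE 0.08, adjusted p = 0.00223) and Clec10a from 98.4, 118 and 107 to 81.8, 88.4 and 90.9 CPM (log2 fold change -0.31, adjusted p = 0.0213). Of 13 macrophage markers, Mrc1 alone passed, and the summed marker level was 8145 to 8269 CPM in WT and 7992 to 8480 CPM in KO. Of 16 complement genes, 3 were lower. Cd59a, which blocks the membrane attack complex, fell from 54.3, 42.5 and 46.3 to 29.1, 24.3 and 29.2 CPM (log2 fold change -0.79, SE 0.11, adjusted p = 0.000773), and Serping1 (-1.66, under 1 CPM) and properdin (Cfp, -0.18) were the others.

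Of 18 genes of lipoprotein handling, LXR and PPAR gamma, 2 were higher, Cd36 and Lipa, and 4 lower. Pltp, the phospholipid transfer protein, fell from 201, 217 and 215 to 155, 158 and 149 CPM (log2 fold change -0.45, SE 0.05, adjusted p = 5.54e-05). Lpl, lipoprotein lipase, fell from 1937, 1827 and 1894 to 1626, 1626 and 1649.8 CPM (log2 fold change -0.21, adjusted p = 0.00958), and its inhibitor gene Angptl4 fell from 3.03, 2.56 and 2.86 to 1.19, 1.46 and 1.21 CPM (log2 fold change -1.14, adjusted p = 0.00567). Pparg, the nuclear receptor that gives the list its name and an activator of Cd36 and Angptl4, was lower too (12.2, 13 and 11.9 CPM in WT, 10.2, 9.88 and 8.68 CPM in KO, log2 fold change -0.37, adjusted p = 0.027). None of 31 genes of cholesterol and fatty acid synthesis passed. Of 25 genes of the NRF2 and glutathione-thioredoxin list, 3 were higher: Gclm (293, 274 and 273 CPM in WT, 360.5, 368 and 348 CPM in KO, log2 fold change 0.36, adjusted p = 0.00365) and Gclc (0.29), the subunits of the enzyme that limits glutathione synthesis, and the thioredoxin reductase gene Txnrd1 (0.17). The glutathione peroxidase gene Gpx1 was lower (-0.23). Of 19 heme and iron genes, the iron exporter ferroportin (Slc40a1) rose from 225, 244 and 229 to 299, 292 and 266 CPM (log2 fold change 0.30, adjusted p = 0.00826), Ireb2 was higher (0.18) and Hp lower. Of 33 stress genes, Xbp1, a transcription factor of the unfolded protein response, was lower (136, 145 and 142 CPM in WT, 114, 113 and 119.5 CPM in KO, log2 fold change -0.29, adjusted p = 0.00165). Of 35 cell cycle genes, the proliferation marker Mki67 was higher (0.24, adjusted p = 0.604 with length and GC trends removed) and the replication licensing gene Cdt1 lower (-0.27). Single higher genes were Trp53inp1 among 16 p53 targets (0.28) and Entpd1, an ATP-degrading ectoenzyme, among 21 purinergic and NAD genes (0.23). None of 26 immediate early transcription factors passed.

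**Figure D3:**
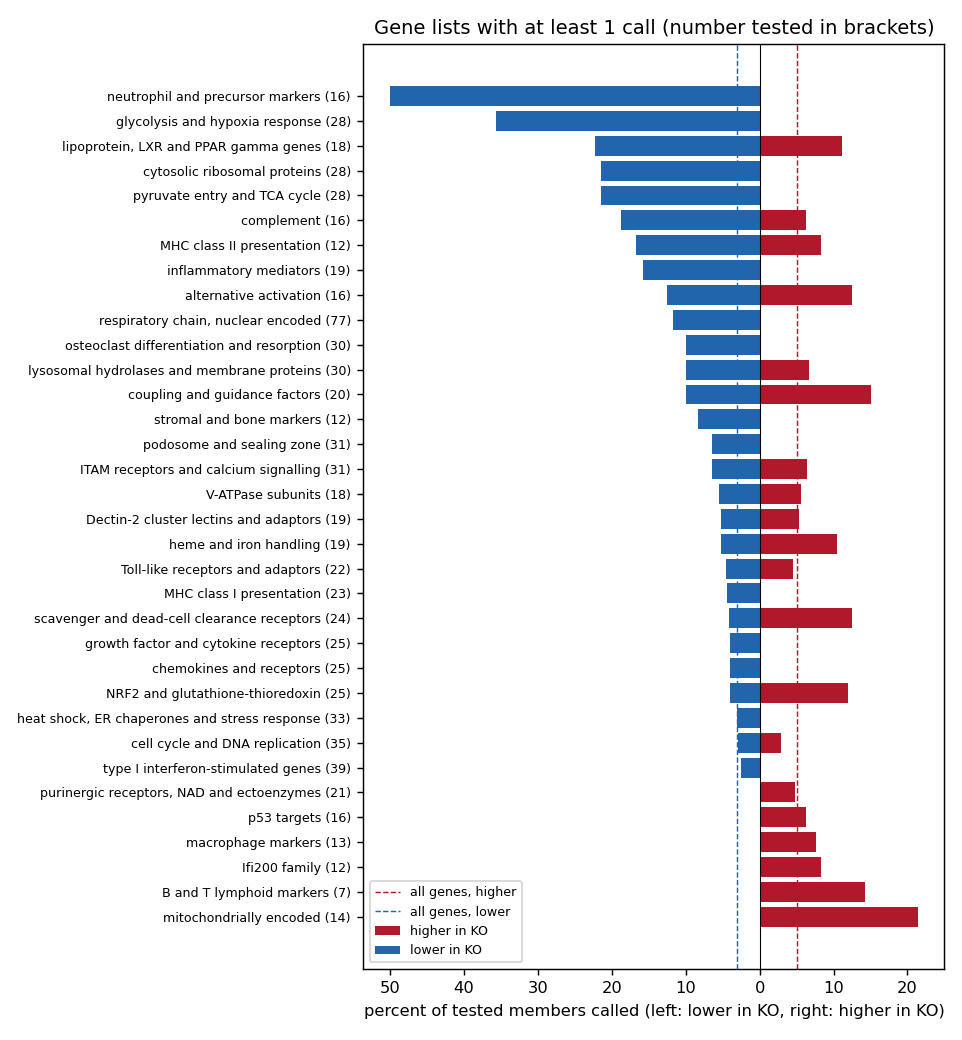
Percent of the tested members of each gene list called lower (left, blue) and higher (right, red) in KO under necrotic supernatant, for the 34 lists with at least 1 call, and dashed lines give the share over all genes (3.12% lower, 5.00% higher). Neutrophil and precursor markers are 8 of 16 lower, and the mitochondrially encoded genes are 3 of 14 higher.

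Markers of stromal and bone cells had low levels. Of 12 tested, 1 was lower, the PDGF receptor gene Pdgfrb (1.3, 1.95 and 1.99 CPM in WT, 0.83, 1.14 and 1.03 CPM in KO, log2 fold change -0.83), and the median was -0.80. Pdgfrb passed in 1 of the 6 fits that left out a library. Col1a1 (7.04, 13.4 and 11.8 CPM in WT, 3.68, 8.63 and 4.18 CPM in KO) and Col1a2 (11.1, 17 and 13.2 CPM in WT and 6.84, 12.2 and 4.41 CPM in KO), the chains of type I collagen, overlapped between genotypes and did not pass. Of the 12 genes, 11 had a negative log2 fold change. Under viable supernatant 5 of the 12 were lower and 0 higher, with a median of -1.17 (5.84% of all genes were called there). Col1a1 (-1.55) and Col1a2 (-1.26) were among those 5. The summed level of the list was 48.5 to 71.8 CPM in WT and 26.5 to 53.8 CPM in KO, and the osteocyte gene Dmp1 was at or under 0.0415 CPM in every library. None of 8 dendritic cell, 6 mast cell and basophil, or 8 erythroid and platelet markers passed. Summed levels were 183 to 210.0 CPM in WT and 179 to 204 CPM in KO for dendritic cell markers, 16.7 to 18.6 and 14.4 to 15.7 CPM for mast cell markers, with Mcpt4 and Tpsb2 at 0, and 360 to 494 and 422 to 455 CPM for erythroid and platelet markers. Over all 42 lists, 884 distinct members were tested, of which 29 were higher and 76 lower (11.9% called, against 8.13% of all genes). By direction, 5.00% of all genes were higher and 3.12% lower. The lists were chosen with earlier results of these data known, so the excess over all genes is no independent result.

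The calls were spread over the genome except for 1 region. Of the 78 tested genes in the first 10 Mb of chromosome 11, 28 were called (35.9%), 21 lower and 7 higher. The next highest of 229 such windows with at least 20 tested genes held 27.3% called, and the median window 7.95%. Camk2b (chromosome 11, 5969644 to 6066362, minus strand), Inpp5j and Aebp1 of the largest falls lie there, and so do the TCA cycle gene Ogdh and the stress gene Xbp1. Ap1b1, a subunit of the clathrin adaptor AP-1, fell from 180.4, 208 and 205 to 123, 129.6 and 125 CPM (log2 fold change -0.65, adjusted p = 3.07e-06), and Pes1, a ribosome biogenesis factor, from 111, 116 and 111 to 76.8, 77.1 and 79.1 CPM (log2 fold change -0.54, adjusted p = 1.61e-06). Nudcd3, a chaperone of dynein, rose there from 62.8, 60.8 and 62.2 to 84.8, 81.7 and 83.5 CPM (log2 fold change 0.43, adjusted p = 2.65e-05). Under viable supernatant 24 of the 78 were called, 23 of them shared with the necrotic comparison. Both Nnt and Eif2s3y, outside this region, were picked after their values were seen. Nnt, the mitochondrial transhydrogenase that makes NADPH, fell from 88.3, 95.6 and 93.8 to 44.3, 42.2 and 44.6 CPM (log2 fold change -1.08, SE 0.06, adjusted p = 9.97e-09). Eif2s3y, a Y-linked translation factor, rose from 61, 61.2 and 59.8 to 81.7, 88.1 and 86.3 CPM (log2 fold change 0.49, adjusted p = 1.72e-05), whereas the Y-linked genes Ddx3y (0.13), Uty (0.11) and Kdm5d (0.15) did not pass. The origin of these differences, from the deletion of Clec4e or from other differences between the mice, cannot be told apart in this design.

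Many of the genotype differences were also present under viable supernatant, in libraries that the necrotic comparison did not use, although both comparisons share 1 estimate of the spread. There, 827 genes were called (5.84%), 406 higher and 421 lower (303 and 619 with upper-quartile scaling). Of the 1150 genes called under necrotic supernatant, 1092 had the same sign under viable supernatant, and 329 were called in the same direction (207 higher, 122 lower). These are 28.6% of the necrotic calls and 39.8% of the viable calls, and 0 genes were called in opposite directions. Clec4e (-3.66), Wdfy1 (-2.16), Cnbd2 (-3.23), Camk2b (-5.53), Ifi208 (4.77), Lrmda (2.84) and Igkc (1.63) had log2 fold changes under viable supernatant near those under necrotic supernatant. Of the 148 genes called in all 6 fits that left out a necrotic library, 103 were also called under viable supernatant.

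**Figure D4:**
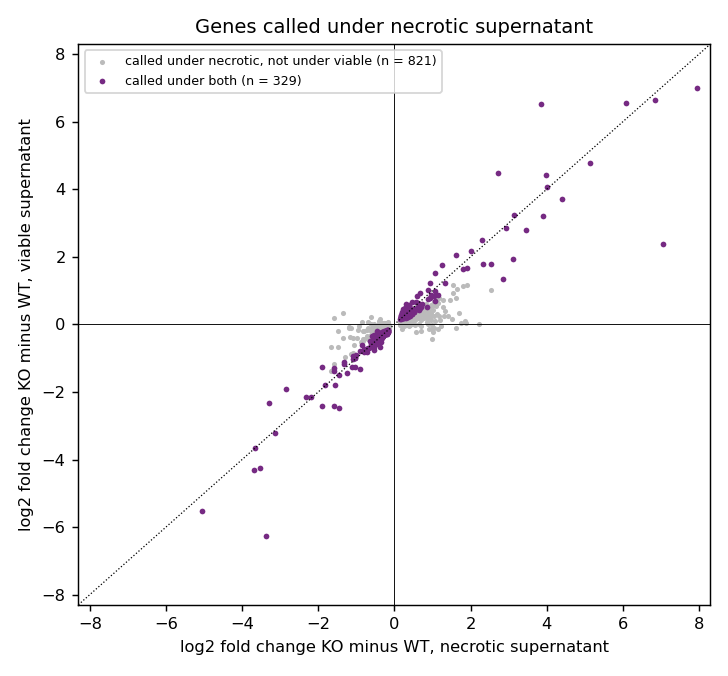
The 1150 genes called under necrotic supernatant, placed by their KO minus WT log2 fold change under necrotic (horizontal) and viable (vertical) supernatant, with the dotted line marking equal values. The 329 genes called under both (purple) lie along that line, and 1092 of the 1150 have the same sign.

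The difference between the genotype effects under the 2 supernatants was tested directly. With edgeR's quasi-likelihood test, 0 of 14153 genes (0%) passed, and the smallest adjusted p was 0.571. At an unadjusted p under 0.05 there were 1064 genes, DESeq2 and limma voom called 0 each, and 209 were called without the filter on low counts. The 5 genes with the smallest p were Rarb (difference of log2 fold changes -3.06, at most 0.705 CPM), Dynlt1c (-1.21), Zfp414 (-0.51), Fcgr2b and Csf2rb2. Fcgr2b, the inhibitory Fc gamma receptor, was measured at 168, 180.0 and 176 CPM in WT and 176, 175 and 173 CPM in KO under necrotic supernatant and at 147, 134 and 153 CPM in WT and 177, 176 and 178 CPM in KO under viable supernatant (difference of log2 fold changes -0.29, SE 0.07, adjusted p = 0.571). Csf2rb2, the mouse receptor subunit for interleukin 3, was measured at 74.9, 74.1 and 77.5 CPM in WT and 73.4, 79.8 and 71.3 CPM in KO under necrotic and at 77.3, 79.4 and 76.7 CPM in WT and 94, 92.8 and 93.1 CPM in KO under viable supernatant (difference -0.28, adjusted p = 0.571). For both genes the genotypes overlapped under necrotic supernatant and did not under viable supernatant, and neither passed. Among the 821 genes called under necrotic supernatant and not under viable, 200 had a difference at unadjusted p under 0.05, against 1064 of all 14153. The 821 were chosen by the same 2 effects whose difference is tested, so a larger share among them is built in and is no result. Cd74 (-0.52 under necrotic, -0.09 under viable), H2-Ab1 (-0.39 and 0.02), Angptl4 (-1.14 and -0.12) and Elane (-0.53 and -0.18) were called under necrotic supernatant and not under viable. Their differences did not pass (adjusted p = 0.571, 0.571, 0.571 and 0.589), so a dependence on the supernatant was not shown for them.

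Higher genes tended to have long transcripts and lower genes short ones. Of the 2819 tested genes in the longest quintile by transcript length (at least 5001 nucleotides), 456 were higher and 25 lower, and their median log2 fold change was 0.11. Of the 2825 in the shortest quintile (at most 1612 nucleotides), 45 were higher and 125 lower, with a median of -0.07. The median transcript length was 6189 nucleotides for higher genes, 2125 for lower genes and 3107 for all tested genes. The level of the longest quintile against the shortest, relative to each gene's mean, was -0.24, -0.19 and -0.03 in the WT libraries and 0.05, 0.04 and -0.01 in the KO libraries (difference in median log2 level). WT replicates 1 and 2 lay apart from the other 4 libraries in this measure. Across genes, Spearman's rho between length and the log2 fold change was 0.29, and 0.35 under viable supernatant, given as a description since genes share libraries. With smooth trends in length and GC content removed from each library, 593 genes were called, 333 higher and 260 lower, of which 460 were among the 1150. Of the 148 genes called in all 6 fits that left out a library, 134 passed with the trends removed, among them Clec4e (-3.76), Wdfy1 (-2.36), Camk2b (-5.03), Ifi208 (5.14), Mmp9 (-0.18), Acp5 (-0.15), Elane (-0.43) and Nnt (-1.07). Called genes named above that did not pass with the trends removed were, beside those already given as such, Aldoa, Arpc3, Atp5o, Atp6v0a2, Atp6v0d1, Cd14, Cdt1, Cfp, Cox4i1, Ctsa, Ctsg, Eno1, Entpd1, Fscn1, Gclm, Gpx1, Grn, H2-Ab1, Ifi27l2a, Il1rn, Ireb2, Lcn2, Ldha, Mrc1, Ngp, Npc1, Pdgfb, Pdgfrb, Pparg, Psmb10, Rfx5, Rpl13, Rpl8, Rplp0, Rps27rt, Slc16a3, Tpi1, Trp53inp1 and Uqcrc1. The part of RNA quality in this pattern was not tested.

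**Figure D5:**
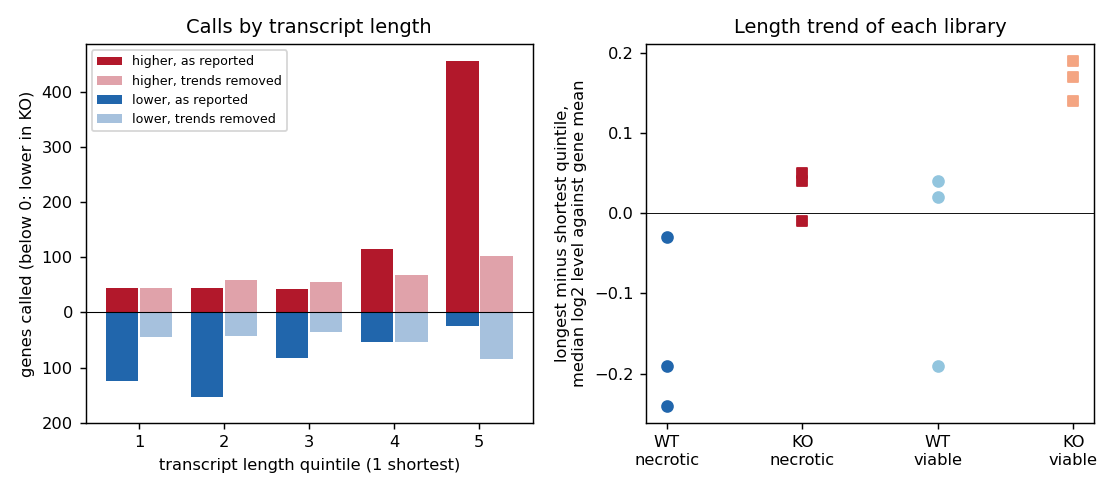
Left, genes called higher (above 0) and lower (below 0) in KO in each quintile of transcript length, as reported and with length and GC trends removed. Right, the median log2 level of the longest minus the shortest quintile in each library: WT necrotic libraries lie at -0.24, -0.19 and -0.03, and KO necrotic libraries between -0.01 and 0.05.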

How the data were processed

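Per the labels' protocols, RNA was extracted at day 3, made into libraries with a NEBNext Ultra kit and sequenced in pairs on an Illumina HiSeq. Raw counts per gene were deposited as a single table for 46983 Ensembl genes in 12 libraries, without normalization. The submitters' processing notes name CASAVA, HISAT2 2.0.5, HTSeq 0.6.1 and GRCm38. The sources used here give neither the strand setting nor the treatment of multi-mapping reads, so near-identical and overlapping genes are uncertain.

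Symbols, positions, lengths and GC contents came from GENCODE M21, which matched 46488 identifiers and left 495 without a match. edgeR 4.0.16 in R 4.3.3 kept 14153 genes with filterByExpr, scaled them by TMM and fitted 1 quasi-likelihood model with 4 group means to all 12 libraries (8 residual degrees of freedom, biological coefficient of variation 7.18%). Each test was two-sided. Adjusted p-values follow Benjamini and Hochberg over the 14153 genes, the threshold was 0.05, and an SE is the size of the log2 fold change divided by the square root of F. An adjusted p in the text comes from this fit unless another is named. The steps were checked on simulated counts. Limits of 3 counts cover counting error only.

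Genes are named by rule: Clec4e and its lectin cluster, the 12 largest changes in each direction (1 CPM or more, separate groups, an approved symbol), up to 4 called genes per list in order of p, the 5 smallest p of the difference between supernatants, and the 3 most abundant genes. Others were named after their values were seen, including list members beyond these 4, those given as not passing and the genes of the first 10 Mb of chromosome 11. The comparison, the lists and the windows were chosen with earlier results of these data known. Alternatives were median-ratio and upper-quartile scaling, DESeq2 1.42.0, limma voom 3.58.1, no filter, 5 CPM in 3 libraries, the replicate number as a block, length and GC trends removed with mgcv 1.9.3, the compared libraries alone, a 2-fold limit and leaving out each library. A few genes that the rule names are not reported here.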

Additional observations from a re-analysis of the deposited data

How the results depend on the processing

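The count of genes called between KO and WT under necrotic supernatant (1150) became 593 with length and GC trends removed, 1857 without a filter on low counts, 114 with a 2-fold limit and 261 without WT replicate 1 and KO replicate 2, and it lay between 163 and 1380 when each necrotic library was left out. The other settings gave 1101 (limma voom) to 1350 (DESeq2). The viable count (827) became 1618 without a filter and 449 with the viable libraries alone, and lay between 227 and 894 when each viable library was left out. The difference between supernatants gave 0 calls under every setting except no filter (209, of which 206 were also tested with the filter). The causes were not tested. Clec4e kept its direction and its call under all settings, with log2 fold changes from -3.79 to -3.48. Purb, on chromosome 11, changed from 0.19 to 0.00 with the trends removed. Of 128 called genes named by rule or in the first 10 Mb of chromosome 11, 98 had a value under all 16 alternatives, of which 29 kept their call under all of them. The other 30 had no value under at least 1 alternative, and 13 of them kept their call under those that gave a value.

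The labels give both genotypes replicate numbers 1 to 3, but same-numbered necrotic libraries did not deviate together (r from -0.0864 to 0.0426). The numbers were therefore not taken as pairs. Same-numbered viable libraries were at r of 0.143, 0.0149 and 0.122 for numbers 1, 2 and 3. Over all groups, same-numbered pairs ran from -0.255 (WT necrotic 1 with KO viable 1) to 0.143, and a differently numbered pair reached 0.202. With the replicate block, the counts were 1154 under necrotic supernatant, 744 under viable supernatant and 0 for the difference, and Clec4e was at -3.68.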
